A study of Arabidopsis thaliana with 12 samples.

Results

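The genes described here encode the enzymes of the main auxin biosynthesis route, the TAA/TAR aminotransferases and the YUCCA (YUC) monooxygenases. They were taken from an RNA-seq table of L*er* loci as every locus whose listed homologs in the reference accession Col include *TAA1* (AT1G70560), *TAR2* (AT4G24670), *TAR3* (AT1G34040), *TAR4* (AT1G34060), *YUC1* (AT4G32540), *YUC2* (AT4G13260), *YUC4* (AT5G11320), *YUC6* (AT5G25620), *YUC8* (AT4G28720) or *YUC9* (AT1G04180). The 10 Col genes gave 11 loci of the 27147 in the table. The study followed explants cut from true leaves of 2-week-old seedlings of L*er* wild type (WT) and of the *dme-2* mutant, which carries a mutated allele of the *DEMETER* (*DME*) DNA demethylase gene, through tissue culture in the same background and on the same media. WT and *dme-2* calli were sampled after 7 days in the dark on callus-inducing medium (CIM, with 2,4-D and kinetin). WT and *dme-2* de novo shoots were sampled after a further 14 days in long days on shoot-inducing medium (SIM, with indole-3-acetic acid and 2-isopentenyl adenine). Each of the 4 groups had 3 biological replicate libraries. Callus and shoot therefore differed in age, hormones and light as well as in organ, and these cannot be told apart.

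Indole-3-acetic acid (IAA), the main natural auxin, is made from tryptophan in a pair of reactions. TAA1 and its TAR relatives convert tryptophan to indole-3-pyruvic acid, and YUC enzymes, which are flavin-containing monooxygenases, convert indole-3-pyruvic acid to IAA. The YUC step is generally held to be rate-limiting, and the genes of both families are expressed in restricted cell types. In leaf explants, YUC genes are known for supplying auxin for root founder cells, and *YUC1* and *YUC4* for organ formation at the shoot apex. In whole calli and shoots, fewer cells of a type and less RNA per cell cannot be told apart.

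The labels were checked against marker genes. The callus gene *LBD16* was at 31.8 to 67.9 TPM (a transcript level scaled for transcript length and library total) in calli and at most 0.56 TPM in shoots. Of the other callus and root-like markers, *LBD29*, *PLT1* and *PLT2* were also lower in all shoots. *WOX5* overlapped between the WT stages. *SCR* went the other way, at 4.31 to 8.06 TPM in WT calli and 16.9 to 18.0 TPM in WT shoots. The meristem gene *STM* was at most 0.06 TPM in calli, 8.87 to 9.55 TPM in WT shoots and 17.4 to 21.4 TPM in *dme-2* shoots. The other meristem markers, *WUS* and *CLV3*, were at most 0.32 and 0.98 TPM in any library and overlapped between the stages and between the genotypes. *DME* transcripts from the mutant locus were still detected, at 3.14 to 3.54 TPM in *dme-2* calli against 10.1 to 13.2 TPM in WT calli, and at 7.49 to 7.89 TPM in *dme-2* shoots against 18.7 to 19.4 TPM in WT shoots. Libraries held 12981250 to 20128757 counts. Counts and TPM did not match in the columns named for *dme-2* callus, where the median deviation between them was 0.87 to 1.06 on the log2 scale against 0.03 to 0.08 in the other 9 libraries. Comparisons with *dme-2* calli therefore rest on TPM (limma on log2(TPM + 1), with a minimum mean of 1 TPM per locus), and the others on counts (edgeR quasi-likelihood test). Calls were made at a Benjamini-Hochberg adjusted p under 0.05 over all loci tested.

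Of the 11 loci, 9 have a single Col homolog. Both remaining loci list *YUC9* together with *YUC5*. Judged by the homologs of the 5 loci on each side, ATLER-1G13610 lies in the position of *YUC9* and is called *YUC9* below. ATLER-5G61430 lies in the position of *YUC5* and is called *YUC9/YUC5*. How reads shared by close copies were assigned is not given for the counts, so the split between this pair, and between *TAR3* and *TAR4*, is uncertain. The members were low, and 1 TPM of a member corresponded to 18.7 to 30.5 counts in the shoots.

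*TAA1* (ATLER-1G84480), which encodes the founding aminotransferase of the route, had the highest level of all members in shoots. Its level was 1.61, 4.05 and 0.28 TPM in WT calli, 1.92, 0.25 and 0.31 TPM in *dme-2* calli, 15.62, 14.61 and 16.44 TPM in WT shoots, and 18.62, 19.61 and 18.58 TPM in *dme-2* shoots. All 6 shoot libraries lay above all 6 callus libraries, and the *dme-2* shoots lay above the WT shoots. *TAR2* (ATLER-4G51980), a close relative that acts redundantly with *TAA1*, was at 0.70, 0.48 and 0.30 TPM in WT calli and 0.42, 0.18 and 0.28 TPM in *dme-2* calli. It was at 8.66, 7.76 and 6.89 TPM in WT shoots and 4.73, 3.37 and 4.25 TPM in *dme-2* shoots. The order of the genotypes in shoots was thus the reverse of that of *TAA1*, again without overlap.

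*TAR3* (ATLER-1G46290) and *TAR4* (ATLER-1G46350) encode less studied, alliinase-related members of the family. *TAR3* was at 0.08, 0 and 0.11 TPM in WT calli, 0.48, 0.90 and 1.05 TPM in *dme-2* calli, 2.32, 2.59 and 2.43 TPM in WT shoots, and 1.07, 1.15 and 0.81 TPM in *dme-2* shoots. The *dme-2* calli lay above the WT calli and the *dme-2* shoots below the WT shoots, while calli and shoots of *dme-2* overlapped. *TAR4* was at 0.83, 0.24 and 0.33 TPM in WT calli, 0.59, 0.62 and 0.77 TPM in *dme-2* calli, 0.60, 0.44 and 0.40 TPM in WT shoots, and 2.53, 2.19 and 2.96 TPM in *dme-2* shoots. The 3 *dme-2* shoots were the only libraries above 1 TPM for this locus. *TAR3* and *TAR4* are neighbours with 5 loci between them. Those 5 loci ranged from 0 to 2.78 TPM in WT libraries and from 0 to 0.02 TPM in *dme-2* libraries.

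Among the YUC members, *YUC4* (ATLER-5G21200) had the highest mean over the 12 libraries. It was at 0.53, 0.83 and 0.65 TPM in WT calli, 2.10, 1.28 and 2.63 TPM in *dme-2* calli, 2.42, 3.66 and 2.98 TPM in WT shoots, and 2.26, 2.58 and 2.14 TPM in *dme-2* shoots. The WT calli stood below all other libraries. *YUC2* (ATLER-4G38050), *YUC6* (ATLER-5G36010) and *YUC9/YUC5* (ATLER-5G61430) were low in all calli and higher in all shoots. *YUC6*, known for leaf phenotypes when overexpressed, was at 0.27, 0.17 and 0.07 TPM in WT calli, 0, 0.23 and 0.12 TPM in *dme-2* calli, 2.71, 4.36 and 3.29 TPM in WT shoots, and 2.61, 2.18 and 2.02 TPM in *dme-2* shoots. *YUC9/YUC5* was at 0, 0.11 and 0 TPM in WT calli, 0, 0 and 0.17 TPM in *dme-2* calli, 2.53, 3.72 and 3.49 TPM in WT shoots, and 2.92, 3.36 and 4.48 TPM in *dme-2* shoots. *YUC2* was at 0.16 to 0.19 TPM in WT calli, 0 to 0.29 TPM in *dme-2* calli, 1.47 to 2.25 TPM in WT shoots and 0.81 to 1.79 TPM in *dme-2* shoots. The genotypes overlapped at both stages for *YUC2* and *YUC9/YUC5*, and for *YUC6* only in calli.

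*YUC8* (ATLER-4G56650) and *YUC9* (ATLER-1G13610), which are known for responses to shade, warmth and jasmonate, had a different pattern. *YUC8* was at 1.61, 6.65 and 0.25 TPM in WT calli, 1.17, 0.94 and 1.23 TPM in *dme-2* calli, 1.72, 2.08 and 1.74 TPM in WT shoots, and 1.27, 1.34 and 1.69 TPM in *dme-2* shoots. *YUC9* was at 0.78, 1.82 and 0.19 TPM in WT calli, 0.34, 0 and 0 TPM in *dme-2* calli, and 0.13 to 0.55 TPM in the 6 shoot libraries. The WT calli spanned all other libraries for *YUC8*, and all but 3 for *YUC9*. *YUC1* (ATLER-4G61120) was at most 0.33 TPM, was at 0 TPM in 5 of the 6 callus libraries, and was too low for any comparison.

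**Figure D1:**
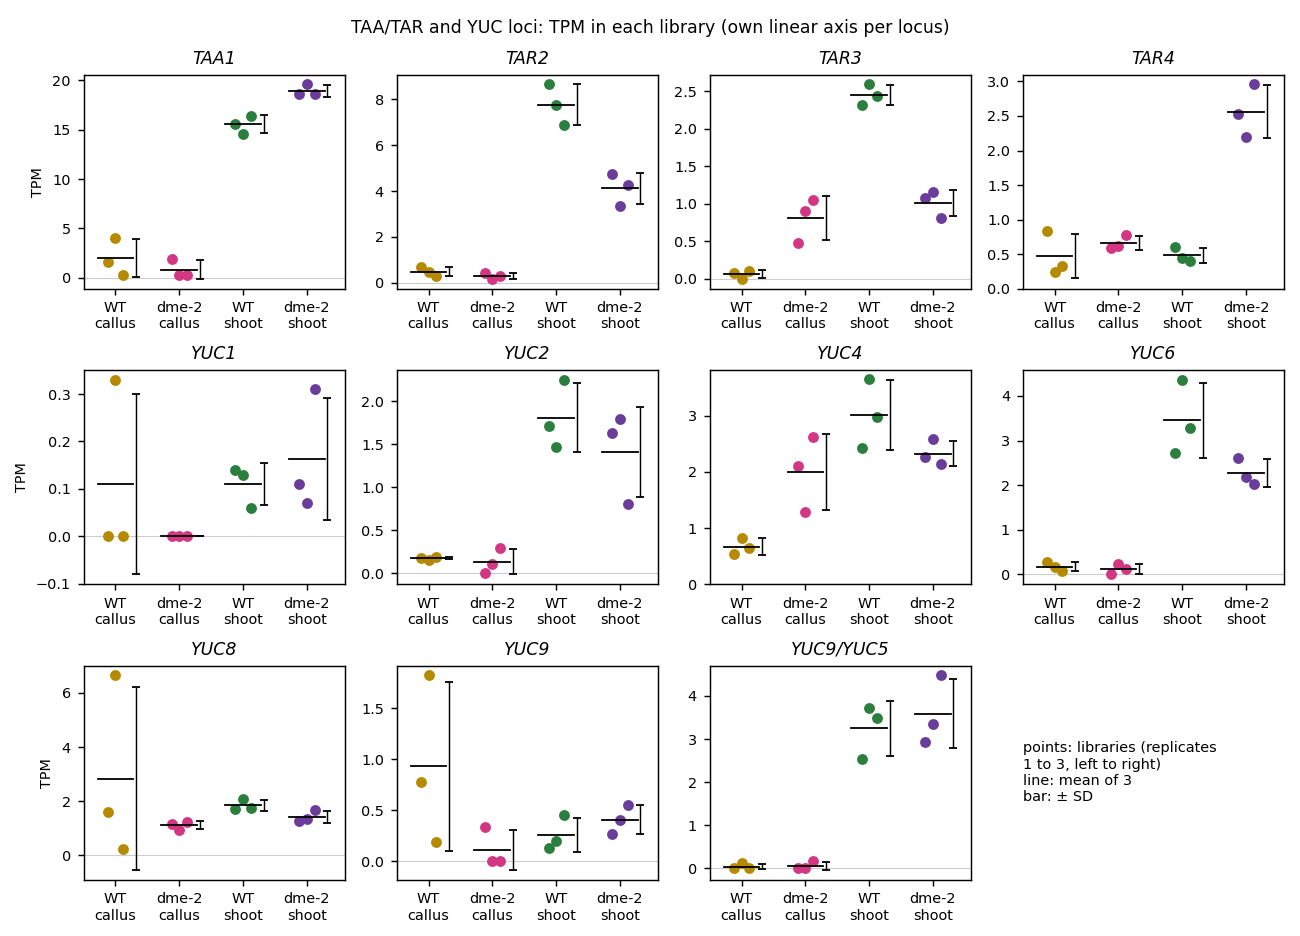
TPM of each of the 11 loci (vertical axes, linear, 1 scale per locus) in each of the 12 libraries, with points for replicates 1 to 3, a line at the mean and a bar for ± SD (n = 3). *TAR3* is highest in WT shoots (2.32 to 2.59 TPM), *TAR4* in *dme-2* shoots (2.19 to 2.96 TPM), and *YUC8* spreads from 0.25 to 6.65 TPM among WT calli.

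In WT, most of the listed members were higher in de novo shoots than in calli. This does not extend to the YUC step as a whole, since *YUC3*, outside the list, was lower in shoots. The YUC total with *YUC3* and *YUC7* overlapped between the WT stages. Among the members, the largest fitted changes were those of *YUC9/YUC5* and *TAR3*, which were almost undetected in callus. *YUC6*, *TAR2*, *YUC2*, *TAA1* and *YUC4* followed. Of the 9 loci tested, 7 rose and 0 fell (edgeR, adjusted p under 0.05). Among all 19616 loci tested, 81.8% were called, 43.4% as higher and 38.4% as lower. *TAR3*, *YUC2*, *YUC6* and *YUC9/YUC5* had at most 5 counts in any WT callus library and entered the test through the shoots. *TAA1*, *TAR2* and *YUC4*, at 8, 8 and 10 counts in WT callus replicate 3, also needed the shoots to pass the filter on low counts. That these 7 loci were called is thus no separate evidence, and nothing is read from their count against those shares. Without the filter on low counts 7 of all 11 loci were called as higher and 1 as lower.

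*TAA1* gave 17, 85 and 8 counts in WT calli and 272, 255 and 329 in WT shoots, a log2 fold change of 2.55 (SE 0.50, edgeR adjusted p = 0.00126). *TAR2* rose from 10, 13 and 8 counts to 181, 160 and 172, a log2 fold change of 3.56 (SE 0.23, edgeR adjusted p = 8.74e-07). Both principal aminotransferase genes thus had more counts in every WT shoot library than in any WT callus library. The WT calli themselves differed widely for *TAA1*, from 8 to 85 counts. *TAR3* had 3 counts in all WT calli together and 133 in all WT shoots, a ratio of 31.8 after scaling (exact 95% counting interval 10.7 to 156). *TAR4* did not pass the test, with 12, 9 and 9 counts in WT calli and 14, 10 and 10 in WT shoots (log2 fold change -0.31, SE 0.40, edgeR adjusted p = 0.479). With library size as the only scaling its value was 0.22, so no direction can be given.

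*YUC6* rose from 5, 4 and 1 counts to 74, 83 and 74, a log2 fold change of 4.01 (SE 0.41, edgeR adjusted p = 1.71e-05). *YUC9/YUC5* had 2 counts in all WT calli and 212 in all WT shoots, a scaled ratio of 76.1 (exact 95% counting interval 20.8 to 632). These intervals cover counting error only. The log2 fold change was 3.11 (SE 0.39) for *YUC2* and 1.65 (SE 0.29) for *YUC4*, with edgeR adjusted p = 7.28e-05 and 0.000668. *YUC8* did not pass the test, at 35, 154 and 7 counts in WT calli and 34, 38 and 41 in WT shoots (log2 fold change -1.16, SE 0.71, edgeR adjusted p = 0.157). That value rested on single callus libraries. It was 0.11 without WT callus replicate 2, and -1.71 (edgeR adjusted p = 0.00203) without WT callus replicate 3. *YUC9*, at 10, 41 and 3 counts in WT calli and 7, 4 and 8 in WT shoots, did not pass the filter on low counts.

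The stage change in *dme-2* was of the same kind for most loci. Of 7 loci tested on TPM, 5 rose and 0 fell (limma, adjusted p under 0.05), where 72.8% of all 18729 loci were called 49% as higher and 23.8% as lower. The 5 loci that rose had means below 1 TPM in *dme-2* calli and reached the TPM minimum through the shoots, so the count is a description. Without that minimum 6 of all 11 loci were called, all as higher. *TAA1* rose by 3.56 (SE 0.33), *TAR2* by 1.98 (SE 0.17), *YUC9/YUC5* by 2.11 (SE 0.18) and *YUC6* by 1.55 (SE 0.16), all as differences of log2(TPM + 1). *TAR4*, without a call in WT, rose by 1.10 (SE 0.15, limma adjusted p = 0.000616). *YUC4*, which rose in WT, had a value of 0.17 (SE 0.20, limma adjusted p = 0.468), and *YUC8* one of 0.20 (SE 0.15, limma adjusted p = 0.268). *TAR3* was below the TPM minimum, with 0.81 ± 0.30 TPM in *dme-2* calli and 1.01 ± 0.18 TPM in *dme-2* shoots (SD, n = 3; exact permutation test, two-sided p = 0.4). *YUC2* was also below it, at 0.13 ± 0.15 TPM in *dme-2* calli and 1.41 ± 0.53 TPM in *dme-2* shoots (SD, n = 3; exact permutation test, two-sided p = 0.1, the smallest that 3 against 3 allows). These values understate the change of low loci because of the added 1, and they share no scale with the count-based WT values.

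In shoots, the *dme-2* mutation went with opposite changes inside the TAA/TAR family. *TAR4* and *TAA1* were higher than in WT shoots, and *TAR3* and *TAR2* were lower, as was *YUC6*. Of 9 loci tested, 2 rose, 3 fell and 4 were not called (edgeR, adjusted p under 0.05). In this comparison 52.8% of all 19114 loci were called, 26.7% as higher and 26.1% as lower, so the members were called about as often as loci in general. The cut-off of the study was an absolute log2 fold change over 1 with an unadjusted p under 0.05. There 2 members passed, *TAR3* and *TAR4*, where 7.08% of all loci did. *TAR4*, at 10 counts in WT shoot replicate 3, needed the *dme-2* shoots, where it was high, to pass the filter on low counts. Nothing is therefore read from this count against that share.

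*TAR4* had 14, 10 and 10 counts in WT shoots and 59, 46 and 63 in *dme-2* shoots, a log2 fold change of 2.21 (SE 0.28, edgeR adjusted p = 4.42e-07). *TAR3* had 41, 46 and 46 counts in WT shoots and 25, 25 and 16 in *dme-2* shoots, a log2 fold change of -1.09 (SE 0.26, edgeR adjusted p = 0.00113). Counts and TPM gave the same directions for both loci, but they describe the same libraries. This is no separate evidence and does not settle how shared reads were split. *TAR2* fell by 0.82 on the log2 scale (SE 0.14, edgeR adjusted p = 3.03e-05), from 181, 160 and 172 counts to 125, 75 and 108. The adjacent loci outside the pair moved less than either member, with a log2 fold change of -0.19 for the ribosomal protein locus next to *TAR3* and -0.53 for *SAMC2* next to *TAR4*. Of the 5 loci between them, 2 were tested and both were called as lower, ATLER-1G46310 at -3.92, a larger change than that of either member, and ATLER-1G46300 at -0.90. These flanking and intervening loci were looked at after the values of *TAR3* and *TAR4* were known.

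Both small changes were less firm. *TAA1* had 272, 255 and 329 counts in WT shoots and 390, 342 and 345 in *dme-2* shoots, a log2 fold change of 0.25 (SE 0.09, edgeR adjusted p = 0.0159). *YUC6* had 74, 83 and 74 counts in WT shoots and 65, 47 and 54 in *dme-2* shoots, a log2 fold change of -0.56 (SE 0.18, edgeR adjusted p = 0.012). Without WT shoot replicate 2 neither was called, with edgeR adjusted p = 0.0902 and 0.0729, and the count of members called was 3. *YUC6* was also not called by limma on log2(TPM + 1), with an adjusted p of 0.0762. The 4 loci without a call were *YUC8* (log2 fold change -0.51, SE 0.25), *YUC4* (-0.24, SE 0.22), *YUC2* (-0.11, SE 0.26) and *YUC9/YUC5* (0.04, SE 0.17).

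**Figure D2:**
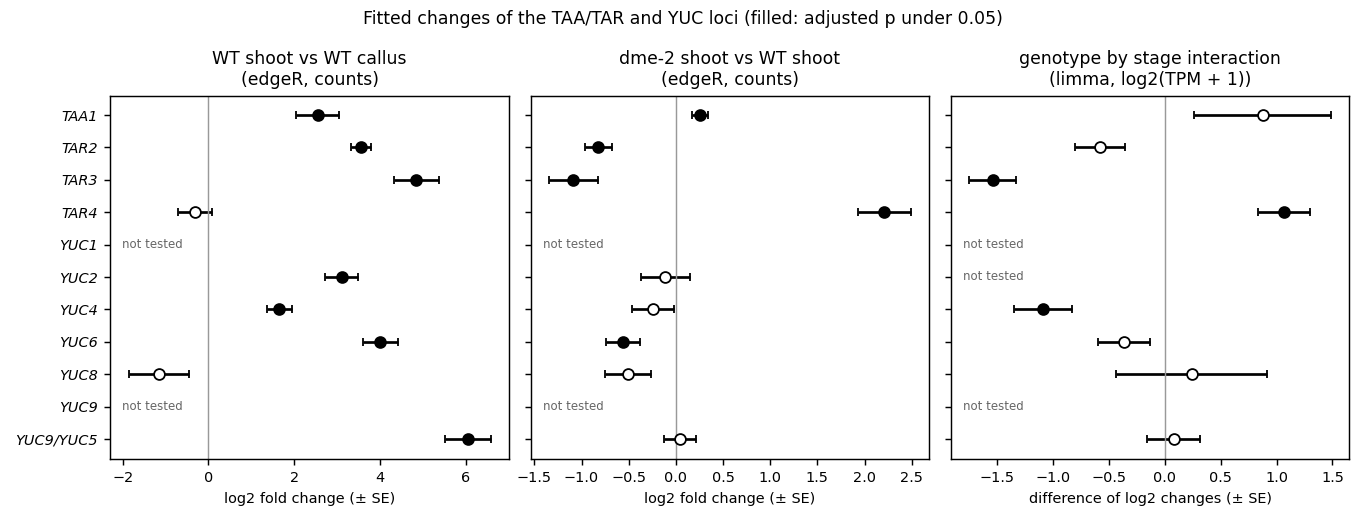
Fitted changes of the members (horizontal axes) with bars for ± SE, as log2 fold changes from counts for WT shoots against WT calli (left) and *dme-2* against WT shoots (middle), and as the genotype difference of the stage changes on log2(TPM + 1) (right). Filled points had an adjusted p under 0.05, and *TAR4* stands at 2.21 and *TAR3* at -1.09 in the middle panel.

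The TAA/TAR total in shoots was close in both genotypes. The 4 TAA/TAR loci summed to 27.2, 25.4 and 26.2 TPM in WT shoots and 27.0, 26.3 and 26.6 TPM in *dme-2* shoots, which is 26.3 ± 0.90 against 26.6 ± 0.32 TPM (SD, n = 3). The groups overlapped, and the ratio of the means was 1.01. Within this total, *TAA1* made up 57.4 to 62.8% in WT shoots and 69.1 to 74.5% in *dme-2* shoots, and *TAR2* 26.3 to 31.8% and 12.8 to 17.6%. *TAR3* made up 8.53 to 10.2% in WT shoots and 3.05 to 4.37% in *dme-2* shoots, while *TAR4* made up 1.53 to 2.21% and 8.32 to 11.1%. None of these 4 shares overlapped between the genotypes. In calli the total was 3.22, 4.77 and 1.02 TPM in WT and 3.41, 1.95 and 2.41 TPM in *dme-2*. The share of *TAR3* in it was 0 to 10.8% in WT calli and 14.1 to 46.2% in *dme-2* calli.

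The 7 YUC members summed to 11.4, 15.6 and 14.3 TPM in WT shoots and 11.1, 11.7 and 12 TPM in *dme-2* shoots, and the groups overlapped. In calli they summed to 3.37, 10.1 and 1.35 TPM in WT and 3.61, 2.56 and 4.44 TPM in *dme-2*. Of the other family loci, *YUC3*, which encodes a further YUC enzyme, was at 8.47, 9.10 and 0.84 TPM in WT calli, 3.84, 1.24 and 4.70 TPM in *dme-2* calli and 0.13 to 0.58 TPM in shoots. With *YUC3* and *YUC7* included, the YUC total was 12.3, 20.4 and 2.19 TPM in WT calli and 11.8, 16.1 and 14.8 TPM in WT shoots, so that the stages overlapped. In *dme-2* it was 7.61, 3.85 and 9.19 TPM in calli and 11.9, 12.6 and 13.2 TPM in shoots, without overlap. *YUC3* made up 38.4 to 69.1% of this wider total in WT calli and 1.83 to 2.21% in WT shoots. From WT calli to WT shoots it fell by 5.04 on the log2 scale (SE 0.90, edgeR adjusted p = 0.00068), and it was the only other family locus tested. *YUC7* was at most 1.2 TPM, and *TAR1*, *YUC10* and *YUC11* were listed at 0 TPM in all 12 libraries. *YUC3* held the largest share of the wider total in 5 of 6 callus libraries and *YUC4* in 1, while in the 6 shoot libraries *YUC6* or *YUC9/YUC5* did. *YUC2*, *YUC6* and *YUC9/YUC5* together summed to 0.26 to 0.45 TPM in WT calli and 6.95 to 9.55 TPM in WT shoots, a grouping made after the values were seen.

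**Figure D3:**
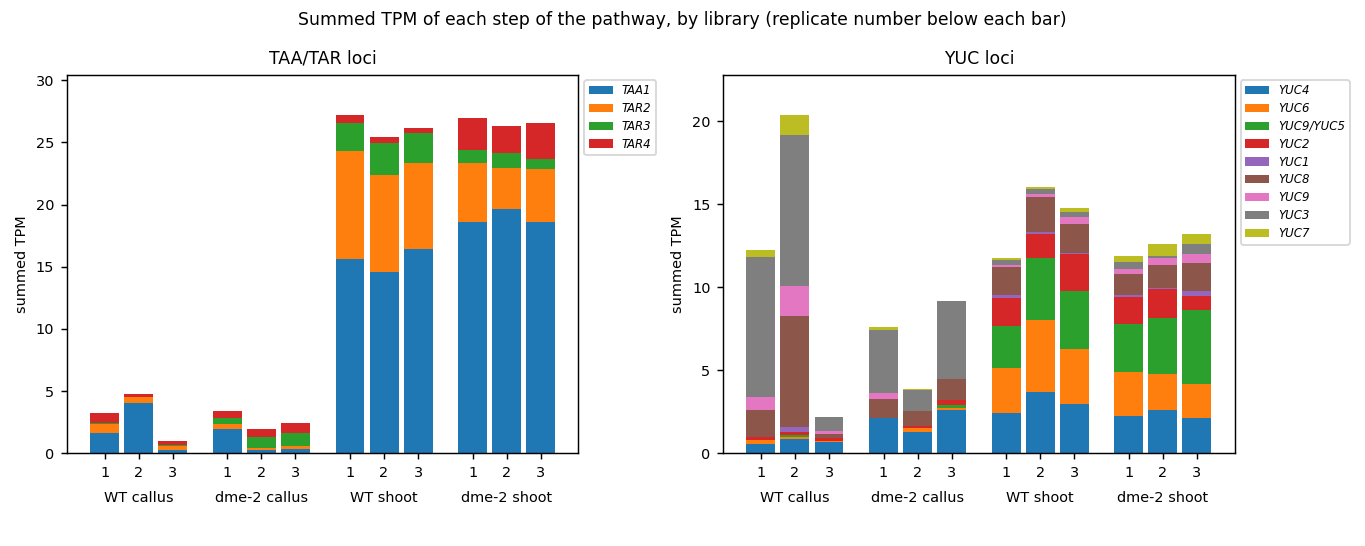
Summed TPM (vertical axes, from 0) of the 4 TAA/TAR loci (left) and of the 7 YUC members with *YUC3* and *YUC7* (right) in each library, with 1 color per locus. The TAA/TAR sum is 25.4 to 27.2 TPM in all shoots with a different make-up in each genotype, and *YUC3* takes 38.4 to 69.1% of the YUC sum in WT calli.

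In calli, no member was called between *dme-2* and WT. Only 3 members reached a mean of 1 TPM and were tested, and 0 were called (limma, adjusted p under 0.05), where 0.141% of all 17029 loci were, that is 24 loci. Without any 1 of the 6 libraries 1 to 9 loci were called. At an unadjusted p under 0.05 it was 1 member, *YUC4*, where 8.06% of all loci passed. The difference of log2(TPM + 1) was 0.82 for *YUC4* (SE 0.27, limma adjusted p = 0.468), -0.61 for *TAA1* (SE 0.57, limma adjusted p = 0.903) and -0.47 for *YUC8* (SE 0.61, limma adjusted p = 0.943). *YUC4* was at 0.67 ± 0.15 TPM in WT calli and 2.00 ± 0.68 TPM in *dme-2* calli (SD, n = 3). *TAR3*, below the TPM minimum, was at 0.06 ± 0.06 TPM in WT calli and 0.81 ± 0.30 TPM in *dme-2* calli (SD, n = 3; exact permutation test, two-sided p = 0.1, the smallest possible here). Without that minimum its difference was 0.76 (SE 0.14, limma adjusted p = 0.212). *YUC4* and *TAR3* were the 2 members whose genotypes did not overlap in calli, both higher in *dme-2*, where 11.9% of all loci listed above 0 TPM did not overlap. With all 12 libraries in one fit, which estimates the spread of calli and shoots together, both were called, *YUC4* at an adjusted p of 0.0473 (limma). That fit called 417 of all 18813 loci, and *TAR3* reached its TPM minimum only through the WT shoots, so nothing is read from these calls.

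The spread among WT calli was shared by several loci. *TAA1*, *YUC8*, *YUC9*, *YUC3* and *YUC7* were each highest in WT callus replicate 2 and lowest in replicate 3. The root stem cell genes *PLT1* and *PLT2* and the epidermal gene *PDF1* were also lowest in replicate 3, with *PLT1* at 4.72, 3.58 and 0.86 TPM and *PDF1* at 34.5, 30.7 and 8.97 TPM. In *dme-2* calli, *YUC3* was lowest in replicate 2, as were *PLT1* at 2.7, 1.47 and 2.44 TPM and *PDF1* at 28.6, 5.98 and 57.0 TPM. Of the other epidermis loci, *PDF2* was lowest in the same libraries. *ATML1* was not, at 11.7, 10.3 and 11.1 TPM in WT calli and 9.06, 10.61 and 9.31 TPM in *dme-2* calli. *LBD16* was highest in WT callus replicate 3 and *dme-2* callus replicate 2, at 48.2, 46.2 and 67.9 TPM in WT calli and 56.6, 59.9 and 31.8 TPM in *dme-2* calli. *SCR*, *WOX5* and *LBD29*, the rest of that marker list, were also lowest in WT callus replicate 3, and in *dme-2* calli all 3 were lowest in replicate 2. These markers were picked with their values in view, and their part in the spread of *TAA1* and the YUC loci was not tested.

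**Figure D4:**
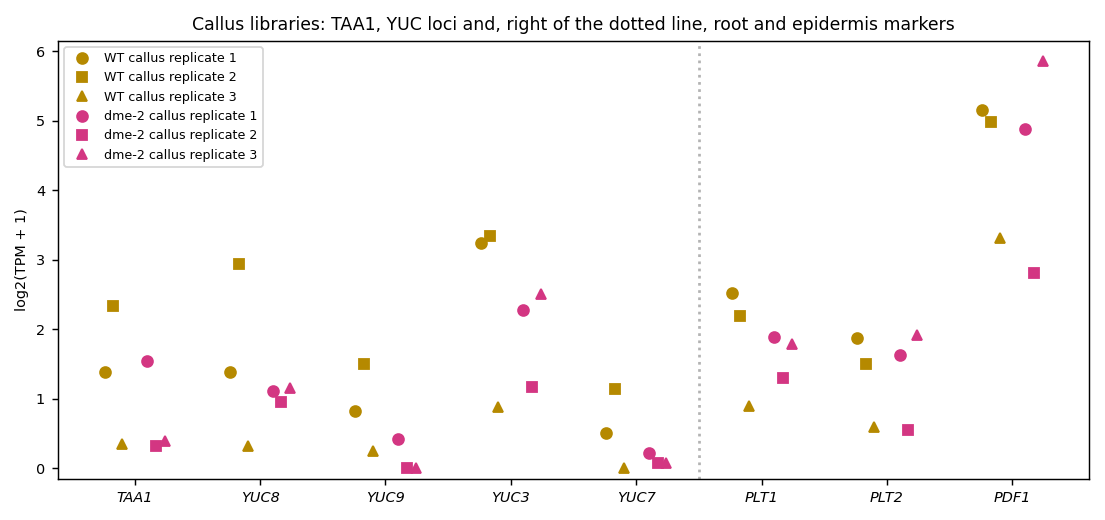
Levels as log2(TPM + 1) (vertical axis) of *TAA1* and 4 YUC loci, and of *PLT1*, *PLT2* and *PDF1* right of the dotted line, in the 3 WT and 3 *dme-2* callus libraries, with 1 symbol per replicate. WT callus replicate 3 (triangles) is the lowest WT library for each locus, with *YUC8* at 0.25 TPM against 6.65 TPM in replicate 2.

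The change from callus to shoot was then compared between the genotypes. It differed for 3 of the 8 members tested, *TAR4* higher and *TAR3* and *YUC4* lower in *dme-2* than in WT (limma interaction, adjusted p under 0.05), where 10.9% of all 18813 loci were called, 6.75% as higher and 4.2% as lower. *TAR3* reached the TPM minimum through the WT shoots and *TAR4* through the *dme-2* shoots, the groups in which each was highest, so nothing is read from the count against that share. Without the minimum 3 of all 11 loci were called. *TAR3* had an interaction of -1.54 (SE 0.21, limma adjusted p = 0.00107) on the log2(TPM + 1) scale. *TAR4* had one of 1.06 (SE 0.23, limma adjusted p = 0.0151) and *YUC4* one of -1.09 (SE 0.26, limma adjusted p = 0.0228). For *TAR3* and *YUC4*, the WT calli lay below the *dme-2* calli, so a smaller increase in *dme-2* started from a higher level. For *TAR4*, the calli overlapped and the shoots did not. The other 5 members were not called, including *TAR2* at -0.58 (SE 0.22, limma adjusted p = 0.128) and *TAA1* at 0.88 (SE 0.61, limma adjusted p = 0.409). The calls rested on few libraries. Leaving out WT shoot replicate 2 or 3, or *dme-2* shoot replicate 1 or 3, left 1 call, since the *YUC4* call was lost in each and *TAR3* or *TAR4* fell below the TPM minimum. Leaving out *dme-2* callus replicate 1 also ended the call of *YUC4*. *TAR4* had a limma adjusted p of 0.0817 with a pseudocount of 0.1. The comparisons share groups, since each set of WT or *dme-2* libraries serves in more than 1 of them, so their results are not independent.

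Some markers of other tissues moved with the same groups. The leaf gene *RBCS1A* was at 14534 to 16364 TPM in WT shoots and 8958 to 10526 TPM in *dme-2* shoots. The 8 leaf mesophyll loci were at most 43.5 TPM in calli and at least 667 TPM in shoots. In shoots all 8 were lower in *dme-2* without overlap, and several of them are *RBCS* loci that share Col homologs. The share of all loci without overlap between shoots is not given here, while 26.1% of all loci were called as lower (edgeR). Of the epidermis loci in shoots, *PDF1* (396 to 425 TPM in WT, 209 to 254 TPM in *dme-2*) and *PDF2* (39.8 to 42.6 and 33.0 to 35.6 TPM) were lower in *dme-2*, while *ATML1* overlapped (36.6 to 40.0 and 35.9 to 39.1 TPM). Of the vascular genes, the phloem gene *SUC2* was higher in *dme-2* shoots (110 to 117 TPM in WT, 132 to 138 TPM in *dme-2*), *ATHB8* was lower (22.2 to 23.0 and 16.7 to 19.3 TPM), and *VND7* overlapped. The 3 flower genes were at most 1.68 TPM and the embryo genes *LEC1* and *ABI3* at most 0.19 TPM in all libraries. The part of these tissues in the changes of the TAA/TAR and YUC loci was not tested.

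The remaining genes of auxin metabolism were examined as lists, 53 loci in all. From WT callus to WT shoot, 14 of 45 tested loci rose and 26 fell (edgeR), where 43.4% of all loci rose and 38.4% fell, and their median log2 fold change was -1.43 against 0.14 for all loci. In the list of tryptophan synthesis, which supplies the substrate of TAA1, 3 of 10 loci rose and 6 fell, with *ASA1*, the first enzyme of the branch, at -3.08 and *PAI1* at 2.18. In the alternative oxime, nitrile and amide routes 2 of 9 rose and 4 fell, with a nitrilase locus (homologs *NIT1*, *NIT2* and *NIT3*) at -6.93 and a cytochrome P450 locus (homologs *CYP71A12*, *CYP71A13* and *CYP71A18*) at -6.67. *VAS1*, which returns indole-3-pyruvic acid to tryptophan, fell by 1.98 on the log2 scale.

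Most genes that conjugate IAA or release it from conjugates were lower in WT shoots, where 43.4% of all loci tested were called as higher and 38.4% as lower. Of 7 *GH3* loci, which encode amino acid conjugating enzymes that auxin induces, 2 rose and 5 fell, with *GH3.1* at a log2 fold change of -7.41 and *GH3.2* at -6.23. Of 7 conjugate hydrolase loci, which release IAA from such conjugates, 1 rose and 6 fell. Among them *ILR1* was at -4.07, and *ILL5* had 129 counts in WT calli against 1 in WT shoots, a scaled ratio of 180 (exact 95% counting interval 31.7 to 7152). The IAA oxidase gene *DAO1* fell by 2.84 on the log2 scale, while *DAO2* was not called (0.33, SE 0.18, edgeR adjusted p = 0.123). In the list of glucosylation and methylation, *UGT74D1*, for a glucosyltransferase, was at 2.58 and *IAMT1* at -1.36. Of 7 regulator loci, 5 rose and 2 fell, led by *PIF5* at 5.53 and *PIF4* at 4.80, which encode light- and temperature-responsive factors known to activate YUC genes.

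In *dme-2* shoots against WT shoots, 15 of 43 tested loci of these lists rose and 12 fell (edgeR), where 52.8% of all loci were called. The cut-off of the study was passed by 3, a share close to the 7.08% of all loci. In the oxime, nitrile and amide routes 3 of 9 loci rose and 4 fell. The largest changes there were in 2 cytochrome P450 loci (homologs *CYP71A12*, *CYP71A13* and *CYP71A18*), at -2.32 (SE 0.44) and -1.775 (SE 0.32). Both were at most 1.77 TPM in any shoot library, and with *ILL6* they were the 3 that passed the cut-off. Both *DAO* loci rose, *DAO1* by 0.74 (SE 0.09) and *DAO2* by 0.55 (SE 0.11) on the log2 scale. Of 6 hydrolase loci 4 rose and 1 fell, with *ILL6* at 1.09 (SE 0.09) and *IAR3* at 0.98 (SE 0.06). The 6 *GH3* loci were split, 1 higher and 3 lower, with *GH3.2* at -0.96 (SE 0.14) and *GH3.17* at 0.49 (SE 0.07). In tryptophan synthesis *ASB1* was at 0.74 (SE 0.06) and *PAI1* at -0.61 (SE 0.10), and among the regulators *PIF7* was at 0.51 (SE 0.09). In calli 0 of 44 tested loci of these lists were called (limma), where only 0.141% of all 17029 loci were, so the count does not set these lists apart. The stage change differed between genotypes for 8 of 44 loci, 6 higher and 2 lower in *dme-2* (limma), where 10.9% of all loci were called. That count ranged from 4 to 12 when single libraries were left out. The largest differences were those of the cytochrome P450 locus ATLER-2G49290 at -2.055 (SE 0.50), *ILL6* at 1.65 (SE 0.41), *DAO1* at 1.36 (SE 0.17) and *DAO2* at 1.04 (SE 0.20).

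**Figure D5:**
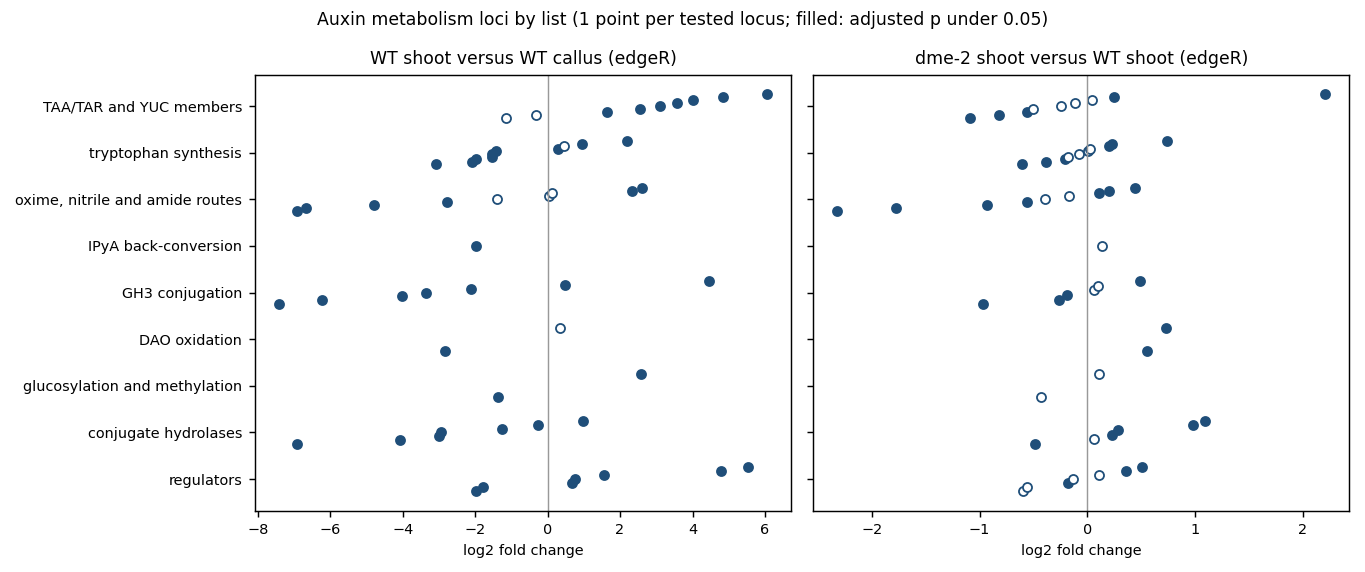
Log2 fold changes (horizontal axes, edgeR) of the tested loci of each auxin metabolism list (rows) in WT shoots against WT calli (left) and *dme-2* against WT shoots (right), with 1 point per locus and filled points for an adjusted p under 0.05. The members reach 6.05 (*YUC9/YUC5*) at the left, where the GH3 list reaches down to -7.41.

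The loci whose levels were most like 3 of the members were found by Pearson correlation of log2(TPM + 1) over the 12 libraries and 18813 loci, as a description. For *TAR3* they were *AT2G32160* (r = 0.962), a locus for the chloroplast chaperones cpHsc70-1 and cpHsc70-2 (r = 0.961) and *STMP6* (r = 0.959). Like *TAR3*, all 3 were highest on average in WT shoots. For *YUC4* they were *NCED3*, for a step of abscisic acid synthesis (r = 0.958), *ESL3.05* (r = 0.954) and *KMD4* (r = 0.953). For *TAA1* they were *RBL6* (r = 0.992), the DELLA gene *GAI* (r = 0.992) and *CCR2* (r = 0.989). Only 5 loci had an r over 0.95 with *TAR3* and 4 with *YUC4*, whereas 1072 had one with *TAA1*, whose pattern was that of the stage as a whole.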

How the data were processed

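The authors made stranded mRNA libraries from L*er* WT and *dme-2* calli and de novo shoots (3 per group), used STAR 2.7.10a for mapping to L*er* and RSEM 1.3.1 for quantification. The authors deposited TPM values, in which length and library total are divided out, and whole-number counts per locus, for which the counting step is not given in the sources used here. The table has 27147 loci. No per-sample column was left unmatched. Members were found through the column of Col homologs, and names come from that column or from RefSeq. The members, lists and tests were chosen with earlier results of these data known.

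For counts, edgeR 4.0.16 was run on the 6 libraries of each comparison (TMM, filterByExpr, quasi-likelihood test). The count columns labelled *dme-2* callus were not used in any test. Their comparisons, and the interaction over all 12 libraries, used limma 3.58.1 (trended eBayes) on log2(TPM + 1), with a minimum mean of 1 TPM per locus. All p-values were adjusted by Benjamini-Hochberg over the loci tested, in R 4.3.3. Single loci below a filter were compared by exact permutation tests over samples, which cannot give a two-sided p under 0.1 with 3 against 3. The exact counting intervals were binomial (scipy 1.17.1). All members were to be described, with at most the 2 called loci of largest absolute log2 fold change per other list and comparison, and likeness for *TAR3* and for the TAA/TAR and YUC members of highest mean TPM. Both test scripts were tested on simulated data. Precision follows from the total counts, 12981250 to 20128757 per library, and from the spread of 3 replicates. Alternatives were RLE factors, library size only, no filter, DESeq2 1.42.0, a minimum of 10 counts per library, fits over 9 or 12 libraries, a replicate block, limma on TPM, a pseudocount of 0.1, TPM rescaled by the median ratio, and leaving out each library.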

Additional observations from a re-analysis of the deposited data

Results flagged for a closer look

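The stage change of 3 members differed between the genotypes by a test of the difference itself (limma interaction on log2(TPM + 1), 12 libraries). The difference was -1.54 for *TAR3*, 1.06 for *TAR4* and -1.09 for *YUC4*.

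The count columns labelled *dme-2* callus, which no comparison used, held more counts than every WT callus library for 8 of the 11 members. Their lowest count was 786 for *TAA1*, 205 for *TAR2*, 28 for *TAR4*, 45 for *YUC1*, 6 for *YUC6*, 1061 for *YUC8*, 488 for *YUC9* and 3 for *YUC9/YUC5*. The TPM columns of the same name gave another picture, with *TAA1* at 0.25 to 1.92 TPM and *YUC8* at 0.94 to 1.23 TPM. What those count columns hold was not tested.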

How the results depend on the processing

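The number of members called changed by more than 1.5 times in 3 comparisons. For *dme-2* against WT shoots it was 5, 3 in a fit over 9 libraries and 3 to 5 with single libraries left out. In the fit over 9 libraries *TAA1* (edgeR adjusted p = 0.562) and *YUC6* (0.0965) were not called, nor was *YUC6* by limma on TPM (adjusted p = 0.0762). For *dme-2* against WT calli it was 0, 2 in a fit over 12 libraries, which *TAR3* entered through the WT shoots, and 0 with any single library left out. For the interaction it was 3, 1 with TPM rescaled by the median ratio and 1 to 3 with single libraries left out. For WT shoots against WT calli it was 7, 7 to 9 with single libraries left out and 6 to 8 under the other alternatives. For *dme-2* shoots against *dme-2* calli it was 5, 4 to 5 and 5 to 6. With at least 10 counts in every library no member was left to test between WT stages.

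Some values without a call changed sign. With single libraries left out, *YUC8* ranged from -1.71 to 0.11 between WT stages, -1.08 to 0.22 between calli and -0.45 to 0.86 for the interaction, the sign changing without WT callus replicate 2. *YUC4* ranged from -0.014 to 0.32 between *dme-2* stages, *YUC2* from -0.23 to 0.13 between shoots, and *YUC9/YUC5* from -0.048 to 0.11 between shoots and -0.053 to 0.19 for the interaction. With rescaled TPM, *YUC8* was at -0.062 and *YUC4* at -0.15 between *dme-2* stages. By library size only, *TAR4* was at 0.22 between WT stages. The cause was not tested.

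Replicate numbers did not pair the samples, since the deviations of same-numbered libraries correlated at -0.40 to 0.03. A replicate block gave 7, 5, 0, 5 and 2 members called in the 5 comparisons, ended the interaction call of *YUC4* (limma adjusted p = 0.0516), and changed no other call.

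Over all loci, library size only raised the median log2 fold change between WT stages from 0.14 to 0.68, and the share of calls that were higher from 53.0 to 67.9%. Rescaled TPM lowered both between *dme-2* stages, from 0.48 to 0.05 and from 67.3 to 50.4%. Loci called between shoots were 10093, or 5437 over 9 libraries, and between calli 24, or 13 without a filter, 1 with the block and 417 over 12 libraries. Of the other auxin loci, 27 were called between shoots and 17 over 9 libraries, and 8 for the interaction and 5 with rescaled TPM. Levels near 1 TPM rest on about 20 counts, which limits all statements on calli.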
